A study of Homo sapiens with 18 samples.

Results

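HUDEP-2 cells carrying a disrupted HBB gene (HBBko) were followed from 48 h to 5 d of differentiation, and the 6 HBBko libraries of these stages, 3 at 48 h and 3 at 5 d, were chosen by their genotype and stage labels out of 18 RNA-seq libraries. HUDEP-2 is an established human erythroid progenitor line that was immortalised from umbilical cord blood and that makes mainly adult globin when it matures. The other 12 libraries are undifferentiated HBBko cells and HUDEP-2 cells labelled WT that were undifferentiated or taken after 48 h or 5 d, in groups of 3. The labels name no agent for any group, do not say of how many clones the HBBko line consists or what the edit is, and speak only of triplicates, so the p-values measure the spread between these libraries, which may be technical. The authors' table calls its columns thal and wen, and thal was read as HBBko from its name (as short for thalassaemia), which leaves wen for WT. Its values, called scaled TPM here, are TPM, a transcript abundance per unit of length and library, that had been scaled once more between libraries in a step the labels do not state. A log2 fold change is the difference between the group means of log2(scaled TPM + 1), 5 d minus 48 h. This understates the change of genes near 1. Values after ± are SDs over 3 libraries, and a number in brackets after the levels of a gene is its log2 fold change. A gene was called, and is said to have risen or fallen, where the adjusted p of the fit was under 0.05.

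Erythroid progenitors divide a few times while they mature, and they then condense and expel the nucleus, clear their mitochondria and ribosomes, and fill the cytosol with hemoglobin. Hemoglobin pairs alpha-like with beta-like globin chains around heme. A cell that lacks beta chains can build fetal hemoglobin from gamma chains, and alpha chains without a partner are unstable and harm the cell. The eIF2alpha kinases, of which EIF2AK1 responds to heme shortage in red cell precursors, slow translation and raise the transcription factor ATF4, whose targets make and import amino acids. MYB is a transcription factor of dividing progenitors, and its loss favours gamma-globin.

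HBB, the targeted gene (GRCh38 chr11:5225464-5229395, minus strand), was at 22102, 22926 and 24265 scaled TPM in the 48 h libraries and 69004, 70764 and 72650.4 in the 5 d libraries of HBBko. WT cells held 99196, 103106 and 132741 at 48 h and 431427, 427628 and 458719 at 5 d. Every HBBko library was below every WT library of its stage, and HBB RNA was present in all of them. These levels were known when the column names were read, so they are a description and no independent check of that reading. Where the table counts reads along HBB relative to the edit is not given. Libraries of 1 stage correlated across the tested genes at 0.995 to 0.998 and libraries of different stages at 0.881 to 0.889 (genes are not independent replicates), and the first principal component, which separated the stages, held 96.5% of the variance. The sums of scaled TPM were 847705 to 861071 at 48 h and 1152839 to 1183462 at 5 d. The number of reads is unknown. Of 8 erythroid markers checked (SLC4A1, ALAS2, HBA1, HBA2, EPB42, GATA1, KLF1 and TFRC), the lowest value in any of the 6 libraries was 211 scaled TPM, that of EPB42 at 48 h.

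Of 35616 genes listed, 23403 were above 0 in at least 1 of the 6 libraries, and 11038 had at least 1 scaled TPM in 3 or more of the 6 libraries and were tested. A gene under 1 in all libraries of 1 stage could enter the test only through the other stage, where it was higher. The adjusted p (limma, Benjamini-Hochberg over all genes tested) was under 0.05 for 85.7% of them: 3637 genes rose (32.9%) and 5823 fell (52.8%). Among the rises, 1038 were of 1 or more on the log2 scale (9.40% of the genes tested), and among the falls 2093 were as large (19.0%). The libraries of both stages did not overlap for 86.5% of the genes. The median log2 fold change of all tested genes was -0.22. Globin RNA took a growing part of each library. The main fit applied no further scaling, so the values were also rescaled to equal sums of all genes but the globins. That fit left the globin genes out and tested 11027 genes. It moved the median to -0.16 and the counts to 3914 genes higher and 5498 lower. Of the main calls 3627 of the 3637 rises and 5498 of the 5823 falls were kept and none turned. Globin genes that rose could not be kept, since they were not in that fit. Of all calls 38.4% were rises; the share was 41.6% without globins, 21.2% with all libraries rescaled to equal sums, 49.98% with median-of-ratios scaling and 49.4% with quantile normalization. Equal sums shifted the median gene to -0.62 and median-of-ratios scaling to 0.00. Equal sums kept 2091 of the 3637 main rises and called 572 of them lower, while all 5823 falls were kept. Median-of-ratios scaling called 84 of the main falls higher. Quantile normalization called 51 of the main falls higher and 1 of the main rises lower. The direction of a small change is therefore set by the scaling, and the counts and medians of the gene groups below are to be read against these shares and this median of all genes. In bulk RNA, fewer cells of a type and less RNA per cell cannot be told apart.

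**Figure D1:**
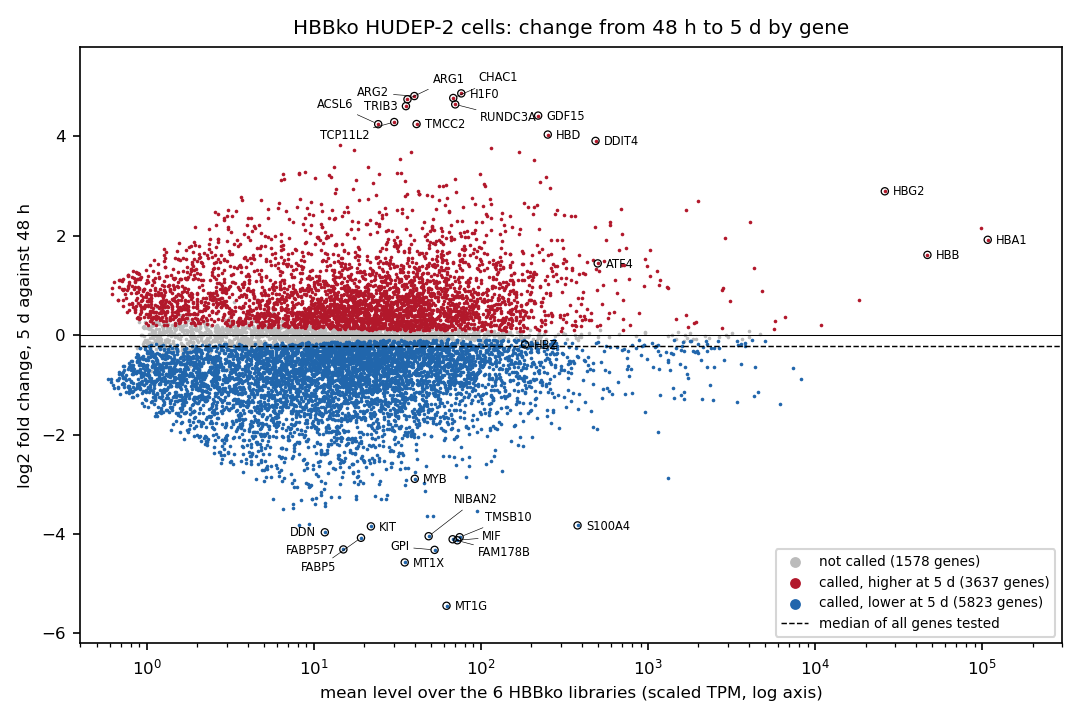
Log2 fold change from 48 h to 5 d (vertical axis) against the mean scaled TPM of the 6 HBBko libraries (horizontal, log axis), 1 point per tested gene, red for the 3637 genes higher at 5 d, blue for the 5823 lower and grey for the 1578 not called; the dashed line is the median of all tested genes. The circled genes are named in the text, and the metallothionein MT1G lies lowest, at -5.44.

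The 12 largest rises among genes with at least 10 scaled TPM at their higher stage were 2 arginases, 4 genes of the ATF4 response, the linker histone H1F0, the minor adult globin HBD, and RUNDC3A, TCP11L2, TMCC2 and ACSL6. H1F0, a linker histone known from cells that leave division, was at 3.72, 4.21 and 4.37 scaled TPM in the 48 h libraries and 136, 166 and 142 in the 5 d libraries, a log2 fold change of 4.87 (SE 0.08, adjusted p = 8.46e-10). The lowest 5 d library was many times above the highest 48 h library. ARG2, the mitochondrial arginase, was at 1.51, 1.92 and 2.005 scaled TPM in the 48 h libraries and 84.7, 77.4 and 71.6 in the 5 d libraries (4.81, SE 0.09, adjusted p = 1.09e-09). Its cytosolic relative ARG1 (GRCh38 chr6:131573144-131584332, plus strand), an enzyme that red cells of primates carry, was at 1.81, 1.88 and 1.35 scaled TPM in the 48 h libraries and 69.1, 66 and 77.3 in the 5 d libraries (4.75, SE 0.09, adjusted p = 1.31e-09). Both enzymes split arginine into ornithine and urea, and both were near the level needed to enter the test at 48 h in all libraries. ACSL6, an acyl-CoA synthetase, went from 1.53 ± 0.406 to 46.9 ± 7.12 (SD, n = 3; log2 fold change 4.25), TMCC2 from 3.20 ± 0.215 to 78.98 ± 3.41 (4.25), TCP11L2 from 2.05 ± 0.419 to 58.4 ± 2.71 (4.29) and RUNDC3A from 4.45 ± 0.144 to 136 ± 8.23 (4.65). In undifferentiated HBBko cells these 4 genes stood at 0.239, 6.87, 1.79 and 0.768.

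Metallothioneins, small cysteine-rich proteins that bind zinc and copper, held the deepest fall. The steepest 2 of the 12 largest falls were MT1G and MT1X. MT1G (GRCh38 chr16:56666731-56668065, minus strand) was at 122, 119.7 and 125 scaled TPM in the 48 h libraries and 2.55, 1.65 and 1.42 in the 5 d libraries, a log2 fold change of -5.44 (SE 0.12, adjusted p = 2.30e-09). In undifferentiated HBBko cells it was at 2.72, 1.34 and 1.98, so the 48 h libraries were the high ones and the 5 d libraries were back in the range of the undifferentiated cells. MT1X was at 74.3, 59.4 and 70.01 scaled TPM in the 48 h libraries and 1.61, 2.16 and 1.92 in the 5 d libraries (-4.57, SE 0.10, adjusted p = 1.82e-09) after 9.86, 2.13 and 6.52 in undifferentiated cells. MT2A, the most widely expressed member of the family, was at 55.5, 48.2 and 46.3 scaled TPM in the 48 h libraries and 4.36, 6.28 and 3.21 in the 5 d libraries (-3.22, SE 0.17, adjusted p = 2.26e-07), against 2.83, 1.47 and 2.11 before differentiation. All 8 metallothionein genes that were tested fell (MT1A, MT1B, MT1E, MT1F, MT1G, MT1H, MT1X and MT2A, from -1.90 to -5.44); the family was picked out after its values were seen, and its copies are so alike that the split of reads among them is uncertain.

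Metallothionein genes are known targets of the metal-sensing factor MTF1, which binds metal response elements, so stretches of 2 promoters with such letters are shown here. RefSeq promoters (GRCh38.p14) were searched on both strands over the 250 bases before the gene's start for TGCGCNC or TGCACNC. Of the 8 metallothionein genes, 4 had a promoter entry and all 4 held the letters, as did 24.7% of all 27305 promoters and 34.1% of those of tested genes. The stretch of MT1X (chr16:56682290-56682429, plus strand) and that of MT2A (chr16:56608334-56608473, plus strand) are printed 5′ to 3′, with matches in capitals (a match to the other strand appears as its complement).
MT1X: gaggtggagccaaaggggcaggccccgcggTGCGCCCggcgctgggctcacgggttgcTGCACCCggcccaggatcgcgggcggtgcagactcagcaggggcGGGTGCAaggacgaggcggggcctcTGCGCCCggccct
MT2A: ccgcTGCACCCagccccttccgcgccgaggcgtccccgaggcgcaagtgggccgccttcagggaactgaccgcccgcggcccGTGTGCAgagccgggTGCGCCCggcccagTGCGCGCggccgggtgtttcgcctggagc
The stretches cover part of the search window. The start is that of the RefSeq transcript in the promoter table, which can lie inside the wider annotated extent of the gene, as the stretches of MT1X and MT2A here and those of ARG1, CHAC1 and ASNS shown further on do in whole or in part. MT1X held 4 matches in the 250 bases and MT2A 7. A match is a run of letters and not a measured binding site.

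The other large falls included those of the genes that follow. GPI, the glycolytic glucose-6-phosphate isomerase, was at 103, 96.9 and 103 scaled TPM in the 48 h libraries and 3.998, 3.97 and 4.41 in the 5 d libraries (-4.32, SE 0.05, adjusted p = 4.86e-10). All 5 d libraries were far below all 48 h libraries, and undifferentiated cells had held more still (397, 392 and 386). The fatty acid binding protein FABP5 went from 36.9 ± 0.748 to 1.26 ± 0.226 (-4.08) and its processed pseudogene FABP5P7 from 29.3 ± 0.369 to 0.663 ± 0.857 (-4.31), and reads of the pair may be split between them. FABP5P7 averaged under 1 scaled TPM at 5 d and so passed the filter through its 48 h libraries. The cytokine MIF went from 137 ± 7.11 to 6.92 ± 0.371 (-4.13), the actin-sequestering thymosin TMSB10 from 141 ± 5.72 to 7.57 ± 1.34 (-4.06) and the calcium-binding S100A4 from 706 ± 20.4 to 49.3 ± 7.71 (-3.83). FAM178B (-4.10), NIBAN2 (-4.04) and DDN (-3.96) fell by like amounts. KIT, the receptor for stem cell factor, was at 42.1, 41.9 and 41.5 scaled TPM in the 48 h libraries and 2.05, 1.97 and 1.91 in the 5 d libraries (-3.85, SE 0.05, adjusted p = 5.04e-10) and had stood at 179.7, 190.1 and 186 in undifferentiated cells. KIT was thus at its highest before differentiation and near 2 scaled TPM at 5 d in each library.

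Globin genes rose together: of 12 members tested, the alpha-globin chaperone AHSP and the pseudogene HBBP1 included, 11 rose, none fell and 1 was not called, with a median log2 fold change of 1.77 against -0.22 for all genes. The embryonic alpha-like HBZ was the exception. The alpha-globin genes, near-identical copies whose reads can be split between them, were at 44632, 43866 and 46668 scaled TPM in the 48 h libraries and 167689, 170353 and 173586 in the 5 d libraries for HBA1 and at 35757, 34754 and 37599 scaled TPM in the 48 h libraries and 158141, 159143 and 165665 in the 5 d libraries for HBA2. The rise was 1.92 (SE 0.05, adjusted p = 5.60e-09) for HBA1 and 2.16 (SE 0.06, adjusted p = 3.71e-09) for HBA2 with no overlap of the stages. These are the main chains of the alpha side. HBM (mu-globin) went from 1389 ± 143 to 6746 ± 313 (2.28, SE 0.07, adjusted p = 9.07e-09) and HBQ1 (theta-globin) from 92.8 ± 5.08 to 163 ± 6.32 (0.80, SE 0.05, adjusted p = 4.29e-07). HBZ was at 186, 194 and 200.4 scaled TPM in the 48 h libraries and 141, 218 and 159.9 in the 5 d libraries, -0.19 (SE 0.13, adjusted p = 0.219), and was not called; replicate 2 at 5 d was above all 48 h libraries and the other 2 were below them. Without that library HBZ was called lower, at -0.36, and it was also called lower under equal sums (-0.63). AHSP, which holds free alpha chains, went from 2413 ± 61.6 to 6157 ± 322 (1.35, SE 0.04, adjusted p = 1.18e-08).

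Among the beta-like genes HBD had the largest rise. It was at 27.2, 24.8 and 32 scaled TPM in the 48 h libraries and 482, 473 and 465 in the 5 d libraries, a log2 fold change of 4.04 (SE 0.08, adjusted p = 1.31e-09). HBG2, 1 of the 2 fetal gamma-globin genes, was at 5879, 6247 and 6339 scaled TPM in the 48 h libraries and 39927, 49323 and 48863 in the 5 d libraries (2.90, SE 0.08, adjusted p = 5.39e-09). Its neighbour HBG1, whose reads may be shared with it, was at 496, 561 and 528 scaled TPM in the 48 h libraries and 3183, 3642 and 3521 in the 5 d libraries (2.70, SE 0.06, adjusted p = 2.07e-09). The 5 d libraries of all 3 genes lay above the 48 h libraries with a wide gap, and replicate 1 at 5 d was the lowest for both gamma genes. The rise of HBB, the disrupted gene, was smaller, at 1.62 (SE 0.05, adjusted p = 1.19e-08), and the embryonic HBE1 went from 4.11 ± 0.0968 to 14.98 ± 2.98 (1.63, SE 0.12, adjusted p = 1.77e-06). At 5 d HBG2 was at 46038 beside 70806 for HBB, while at 48 h it was at 6155 beside 23097. Under quantile normalization HBA1, HBA2 and HBB are at 0 by construction, since they hold the top ranks in every library.

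The same genes were taken as shares of all scaled TPM in a library, which do not depend on a scaling by 1 factor per library. Whether the authors' unstated scaling step was of that kind is not known. Globins made up 13.1, 12.95 and 13.7% of the 48 h libraries and 38.7, 39.6 and 39.9% of the 5 d libraries. Alpha-like genes went from 9.66, 9.42 and 9.998% to 28.9, 28.9 and 29.3% and beta-like genes from 3.36, 3.49 and 3.62% to 9.77, 10.6 and 10.6%. Gamma-globin as a share of gamma plus beta was 22.4, 22.9 and 22.1% at 48 h and 38.5, 42.8 and 41.9% at 5 d. No library of either stage reached the other stage's range in these 4 shares. WT cells went from 2.03% to 1.04% of gamma within gamma plus beta, from 12.1% to 30.1% for beta-like genes and from 9.65% to 21.2% for alpha-like genes (means of 3). With 3 libraries against 3, the two-sided exact permutation test cannot go below p = 0.1, and all 6 shares compared gave that value, 0.1 also after Benjamini-Hochberg adjustment.

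**Figure D2:**
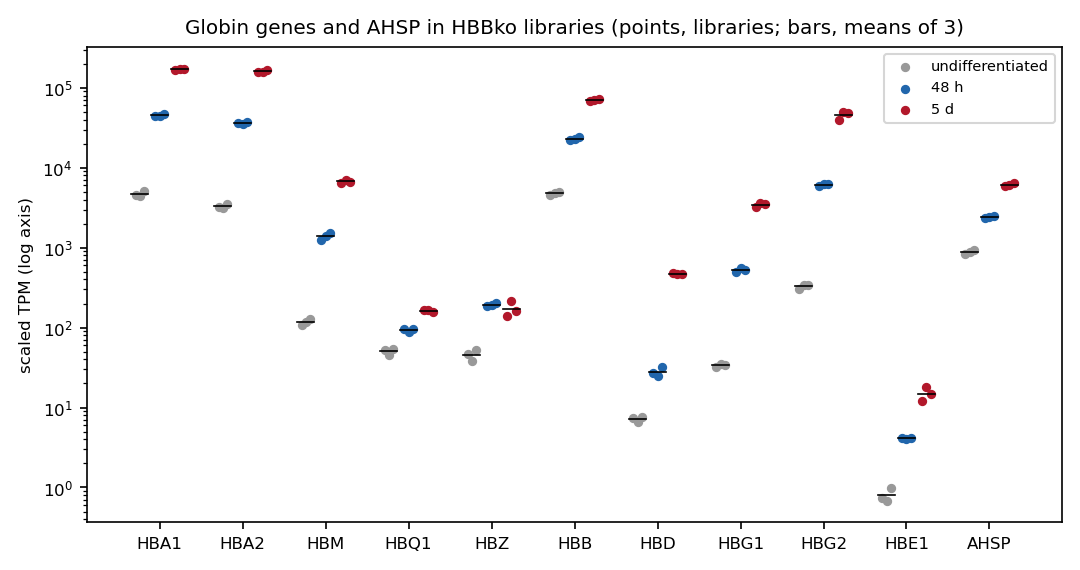
Scaled TPM (log axis) of 10 globin genes and AHSP in HBBko libraries, undifferentiated (grey), at 48 h (blue) and at 5 d (red); points are libraries and bars means of 3. Each gene except HBZ has its 5 d points above its 48 h points, and HBZ has 1 of its 3 above them.

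Heme, the iron-bearing ring that each globin holds, is made partly in mitochondria. Of 24 genes of heme synthesis and transport tested, 17 rose, 4 fell and 3 were not called (median 1.05, or 16 higher, 7 lower and a median of 0.60 under equal sums). ALAS2, the erythroid enzyme of the first and limiting step, was at 458, 485 and 497 scaled TPM in the 48 h libraries and 1559, 1579.7 and 1615 in the 5 d libraries (1.72, SE 0.04, adjusted p = 1.80e-09). Its stages lay far apart, with little spread within either. The mitochondrial iron importer SLC25A37 went from 1186 ± 13.9 to 4607 ± 75.1 (1.96) and the mitochondrial glycine carrier SLC25A38 from 5.37 ± 0.677 to 21.5 ± 2.40 (1.82). The 4 that fell were the heme oxygenase HMOX2 (-1.69), the heme-binding PGRMC1 (-1.30), the biliverdin reductase BLVRA (-1.11) and the porphyrin transporter TMEM14C (-0.44).

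Of 23 iron genes 21 were tested, and 15 rose, 4 fell and 2 were not called; the median was 0.34, and equal sums turned this to 5 higher, 12 lower and a median of -0.11. ERFE, the hormone erythroferrone by which erythroid cells lower hepcidin in the liver, was at 112, 118 and 119 scaled TPM in the 48 h libraries and 626, 621 and 598 in the 5 d libraries (2.39, SE 0.03, adjusted p = 7.10e-10). This was the largest rise of the list, and NCOA4, the receptor that brings ferritin to autophagy, came next (127 ± 1.78 to 397 ± 12.1; 1.64). The iron-sensing ligase subunit FBXL5 (0.88) and the iron importer SLC11A2 (0.72) rose less. The members that fell included the cysteine desulfurase NFS1 (35.6 ± 1.55 to 8.40 ± 2.02; -1.98) and ACO1, which doubles as an iron regulatory protein (-1.52).

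Red cell membrane and skeleton genes encode the spectrin network, its anchors and the surface proteins that carry blood group antigens. Of 39 such genes 38 were tested, and 31 rose, 3 fell and 4 were not called (median 1.27, or 27 higher, 9 lower and a median of 0.83 under equal sums). SLC4A1, the anion exchanger band 3, was at 476, 517 and 517 scaled TPM in the 48 h libraries and 2956, 2869.8 and 2805 in the 5 d libraries (2.51, SE 0.04, adjusted p = 8.23e-10). The glucose transporter SLC2A1 went from 203 ± 13.4 to 1178 ± 47.6 (2.53), the urea transporter SLC14A1 from 16.1 ± 0.844 to 105 ± 19.7 (2.62) and TSPO2 from 13.4 ± 0.679 to 126 ± 7.55 (3.14), the largest rise of the list. Ankyrin (ANK1), which ties the spectrin network to band 3, went from 297 to 723 (1.28). The 3 that fell were the mechanosensitive channel PIEZO1 (119 to 50.8; -1.21), beta-adducin ADD2 (579 to 359; -0.69) and ICAM4 (-0.27), whose call median-of-ratios scaling ended (-0.03).

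Late maturation genes had the highest median of all 30 lists, at 1.96: of 34 genes 33 were tested, 32 rose and 1 fell. Besides ARG1 and TMCC2, the large rises included that of TRIM10, an erythroid ubiquitin ligase of the tripartite motif family. TRIM10 was at 22.1, 23.2 and 23.9 scaled TPM in the 48 h libraries and 284, 296 and 357 in the 5 d libraries (3.70, SE 0.08, adjusted p = 1.89e-09). Its stages did not overlap. The carbonic anhydrase CA1 was already abundant at 48 h and went from 13889 to 22672 (0.71), and BPGM, which makes the 2,3-bisphosphoglycerate that tunes oxygen binding, went from 46.6 to 252 (2.40). GATA1, the main erythroid activator, binds GATA letters, and the promoters of ARG1 and TRIM10 are shown because they hold them beside such rises. The search was for AGATAA or TGATAA on both strands of the 250 bases before the start. They occurred in 6 of the 24 risen genes of the list with a RefSeq promoter, in 6.88% of the promoters of all tested genes and in 14.9% of all promoters; a promoter of TMCC2 held none. Printed 5′ to 3′ with the match in capitals are ARG1 (chr6:131573140-131573205, plus strand) and TRIM10 (chr6:30161334-30161399, minus strand).
ARG1: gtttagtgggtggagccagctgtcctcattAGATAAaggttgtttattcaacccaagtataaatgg
TRIM10: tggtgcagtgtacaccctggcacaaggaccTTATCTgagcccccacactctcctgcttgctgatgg

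Maturing red cells tag and clear most of their other proteins and organelles. All 34 ubiquitin genes of terminal maturation were called, 30 higher and 4 lower (median 0.76, or 21 higher, 10 lower and a median of 0.32 under equal sums). After TRIM10 the largest rises were those of the F-box gene FBXO30 (6.81 ± 0.117 to 42.4 ± 3.13; 2.47), the conjugating enzyme UBE2H (9.63 ± 1.04 to 57.8 ± 4.39; 2.47) and the ligase TRIM58 (27.1 ± 0.906 to 105 ± 3.74; 1.92). The ubiquitin gene UBB went from 1931 to 3609.7 (0.90). UBE2L6 (-0.56) and UBE2D1 (-0.43; not called with quantile normalization, at -0.13) fell, and so by small amounts did ARMC8 (-0.20) and DDB1 (-0.12), which median-of-ratios scaling put at 0.04 and 0.12. The call of DDB1 was also lost without globins (-0.05) and without replicate 2 or 3 of 48 h or replicate 1 of 5 d (-0.12 to -0.09). In autophagy and mitophagy 27 of 40 tested genes rose, 8 fell and 5 were not called (median 0.65, or 20 higher, 15 lower and a median of 0.20 under equal sums). GABARAPL1, a protein of the autophagosome membrane, was at 3.96, 4.11 and 3.44 scaled TPM in the 48 h libraries and 46.7, 43.4 and 45.1 in the 5 d libraries (3.25, SE 0.06, adjusted p = 1.52e-09). The initiating kinase ULK1 went from 12.1 ± 0.234 to 89.9 ± 4.15 (2.80) and its partner RB1CC1 from 20.5 ± 0.468 to 94.9 ± 5.95 (2.15), while the protease ATG4A rose (2.11) and its relative ATG4C fell (-1.24). The mitophagy receptors differed: BNIP3L, the one known for reticulocytes, went from 206 to 275 (0.41), BNIP3 fell (23.1 to 9.41, -1.21) and so did FUNDC1 (-0.56). A rise as small as that of BNIP3L can be lost with the scaling, since equal sums moved the median gene from -0.22 to -0.62.

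Chromatin genes moved in both directions. Of 24 histone genes 22 were tested and all were called, 14 higher and 8 lower (median 0.80, or 12 higher, 8 lower and a median of 0.40 under equal sums). HIST1H1C, a linker histone gene, was at 32.7, 28.9 and 33.2 scaled TPM in the 48 h libraries and 322, 338 and 484 in the 5 d libraries (3.53, SE 0.14, adjusted p = 3.14e-08). Replicate 3 at 5 d was the highest, and all 5 d libraries were far above all 48 h libraries. HIST2H2AA4 went from 10.8 ± 0.589 to 66.7 ± 2.76 (2.52) and the linker histone H1FX from 41.3 ± 0.979 to 139.6 ± 9.81 (1.73). The members that fell included HIST1H4C (14.1 ± 1.40 to 4.06 ± 0.770; -1.59), HIST1H4H (-0.99), HIST1H1B (-0.98) and HIST1H1D (-0.95). Many histone transcripts lack a poly(A) tail, and histone copies are alike, so the split among members is uncertain. Of 31 genes of nuclear condensation and enucleation tested, 20 rose and 11 fell (median 0.48, or 15 higher, 14 lower and a median of 0.03 under equal sums). XPO7, an export receptor needed for condensation of the erythroid nucleus, was at 81.3, 81.8 and 81.5 scaled TPM in the 48 h libraries and 378, 328 and 377 in the 5 d libraries (2.13, SE 0.05, adjusted p = 3.46e-09). The deacetylase HDAC5 (13.8 to 48.9; 1.75), the MYC antagonist MXI1 (41.6 to 118; 1.48) and the condensin subunit NCAPG2 (1.16) also rose. The lamins LMNB1 (106 to 46.4; -1.18) and LMNA (308 to 187; -0.76), the formin DIAPH2 (-1.54) and RANBP1 (-1.15) fell.

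**Figure D3:**
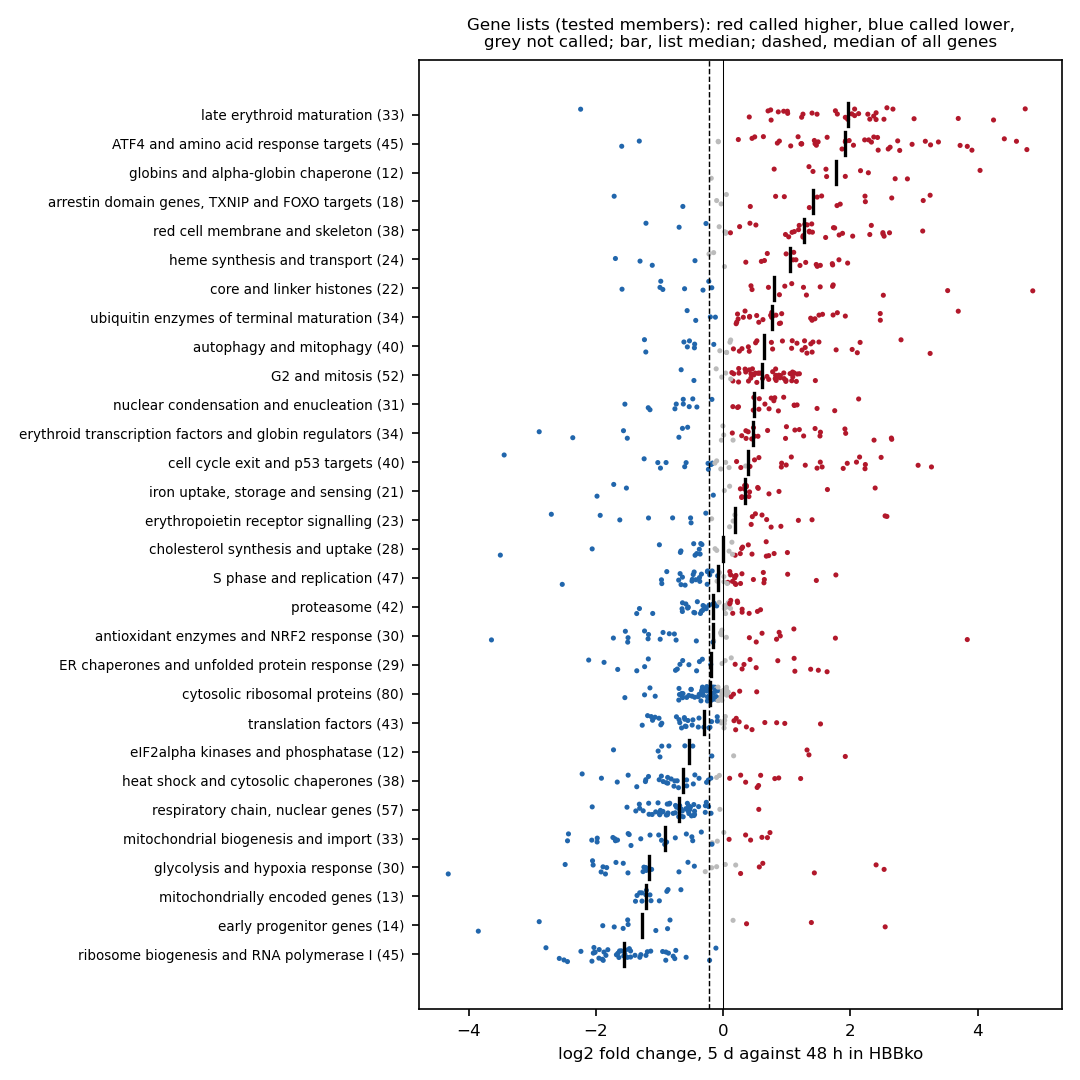
Log2 fold change from 48 h to 5 d (horizontal) of the tested members of the 30 gene lists, 1 point per gene, red for genes called higher, blue for lower and grey for not called, with the list median as a bar and the number tested in brackets; the dashed line is the median of all tested genes. Late maturation (1.96) and the ATF4 targets (1.92) lie highest, ribosome biogenesis (-1.56) lowest.

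Erythroid transcription factors and globin regulators moved in both directions. Of 34 tested, 23 rose, 7 fell and 4 were not called (median 0.46, or 14 higher, 13 lower and a median of 0.03 under equal sums). MYB (GRCh38 chr6:135181315-135219173, plus strand) was at 69.7, 71.7 and 72.8 scaled TPM in the 48 h libraries and 8.67, 8.50 and 9.15 in the 5 d libraries (-2.89, SE 0.04, adjusted p = 7.40e-10), after 169, 161 and 166 in undifferentiated cells. It was lowest at 5 d in every library. KLF1, an activator of beta-globin and of BCL11A, went from 479 ± 17.3 to 1048 ± 41.7 (1.13, SE 0.04, adjusted p = 1.82e-08), and BCL11A, a repressor of gamma-globin, from 8.59 ± 0.371 to 12.4 ± 0.476 (0.48, SE 0.06, adjusted p = 4.46e-05), a call that equal sums ended (0.07). SOX6, which also represses embryonic and fetal globin, was at 9.90, 11.7 and 11.2 scaled TPM in the 48 h libraries and 63.6, 56.3 and 62.4 in the 5 d libraries (2.37, SE 0.07, adjusted p = 6.35e-09). ZBTB7A, a further gamma-globin repressor, went from 29.4 to 58.97 (0.98). Gamma-globin RNA and the RNA of these 3 repressors thus rose over the same interval. FOXO3 (30.8 ± 1.29 to 199 ± 11.9; 2.65), E2F2 (24.7 ± 0.637 to 159.6 ± 5.66; 2.64), KLF3 (1.93) and NFE2 (234 to 884; 1.91) rose as well. GATA1 rose by 0.36 (adjusted p = 2.79e-05), which equal sums turned to -0.09. GATA2 was at 27.6, 27.1 and 29.9 scaled TPM in the 48 h libraries and 37.2, 25.4 and 33.1 in the 5 d libraries and was not called (0.16, SE 0.12, adjusted p = 0.243), but was called higher without replicate 2 of 5 d (0.31), with median-of-ratios scaling (0.39) and with quantile normalization (0.30). The histone methyltransferase EHMT2 (29.9 to 5.04, -2.36) and the demethylase KDM1A (74.2 to 25.5, -1.51), known corepressors of gamma-globin, fell. LIN28B, a fetal-stage RNA-binding protein, fell as well (2.997 to 0.351, -1.56). LIN28B averaged under 1 scaled TPM at 5 d and so passed the filter through its 48 h libraries, where it was higher.

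Of 27 early progenitor genes 14 were tested, and 10 fell, 3 rose and 1 was not called (median -1.27). After KIT and MYB the largest falls were those of the transcription factor RUNX1 (13.1 to 2.81; -1.89) and the kinase CDK6 (6.32 to 1.24; -1.71), and MYC fell from 295 to 104 (-1.50). ID1 (9.13 ± 0.924 to 58.1 ± 1.61; 2.55) and LMO4 (4.17 to 12.6; 1.39) rose, and so did ID2 (0.37), which equal sums turned to -0.08. Erythropoietin receptor signalling was mixed, with 11 of 23 higher, 8 lower and 4 not called (median 0.19, or 8 higher, 9 lower and a median of -0.05 under equal sums). The receptor EPOR (155 ± 3.95 to 410.5 ± 5.77; 1.40), its survival target BCL2L1 (59.2 ± 1.13 to 358 ± 4.94; 2.57) and the adaptor SH2B3, a brake on JAK2 (15.1 to 92.8; 2.55), rose. STAT5A fell from 57.7 ± 1.74 to 8.06 ± 0.615 (-2.70, SE 0.06, adjusted p = 1.82e-09), while its close relative STAT5B went from 37.3 to 51.7 (0.46). A rise as small as that of STAT5B can be lost with the scaling, as that of ID2 was. The kinase LYN (19.3 to 4.34; -1.93) fell as well. In the list of arrestin domain genes and FOXO targets 13 of 18 tested rose, 2 fell and 3 were not called (median 1.42, or 12 higher, 5 lower and a median of 1.01 under equal sums), with BCL6 at 0.552 ± 0.0529 to 12.8 ± 1.18 (3.15) and CCNG2 at 6.59 to 34.8 (2.24). BCL6 was under 1 scaled TPM at 48 h and so entered the test only through its 5 d libraries.

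Genes of the cell cycle did not move as 1 group. In G2 and mitosis 46 of 52 rose, 2 fell and 4 were not called (median 0.61); equal sums left 29 higher and 13 lower with a median of 0.16. NUSAP1, a spindle protein, was at 156, 170.4 and 173 scaled TPM in the 48 h libraries and 441, 453 and 476 in the 5 d libraries (1.45, SE 0.05, adjusted p = 1.06e-08). The phosphatase CDC25C (15.7 to 37.4; 1.20), the kinetochore gene NDC80 (71.9 to 163; 1.17) and the proliferation marker MKI67 (52.8 to 119; 1.15) followed. CDC20, the activator of mitotic exit, fell (226 to 143; -0.66), as did the checkpoint gene MAD2L1 (-0.46). In S phase and replication 18 rose, 23 fell and 6 of 47 were not called, with a median of -0.09 that median-of-ratios scaling turned to 0.15; equal sums gave 6 higher, 40 lower and a median of -0.53. Cyclin E2 (CCNE2; 43.3 ± 0.522 to 150.5 ± 4.94; 1.77), E2F1 (35.4 to 99.7; 1.47) and the ribonucleotide reductase subunit RRM2 (354 to 716; 1.01) rose, while the uracil glycosylase UNG fell from 42.6 ± 0.513 to 6.58 ± 0.400 (-2.53).

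Among genes of cycle exit and p53 targets 22 of 40 tested rose, 12 fell and 6 were not called (median 0.39, or 17 higher, 17 lower and a median of -0.0001 under equal sums). CDKN2D, an inhibitor of CDK4 and CDK6, was at 5.24, 5.55 and 5.46 scaled TPM in the 48 h libraries and 57.7, 59.8 and 65.98 in the 5 d libraries (3.27, SE 0.06, adjusted p = 1.08e-09). Of its relatives with the same targets, CDKN2B went from 4.06 ± 0.126 to 41.3 ± 1.24 (3.06), and CDKN2A, the most abundant of the 3 at both stages, fell from 325 to 164 (-0.98). CDKN1B, which is known to rise in terminal erythroid divisions, went from 27.2 to 80.4 (1.53), and the p53 target GADD45A from 18.8 ± 0.389 to 110.0 ± 11.9 (2.48). CDKN1A, a further p53 target, was at 3.15, 2.25 and 2.35 scaled TPM in the 48 h libraries and 4.71, 3.25 and 2.91 in the 5 d libraries and was not called (0.35, SE 0.15, adjusted p = 0.0541); it was called higher without replicate 1 of 48 h or replicate 3 of 5 d (0.47 each), with a replicate block and under globin-free (0.40), median-of-ratios (0.54) and quantile (0.72) scaling. Cyclin D1 (CCND1) fell from 22.2 ± 1.68 to 1.15 ± 0.327 (-3.44) and cyclin D2 (CCND2) from 9.55 to 3.49 (-1.24), whereas cyclin D3 (CCND3), the main erythroid D cyclin, went from 339 to 643 (0.92). The apoptosis effector BAK1 fell (-1.03).

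ATF4 and the genes of the amino acid response rose almost as a whole. Of 54 listed genes 45 were tested: 41 rose, 2 fell and 2 were not called, with a median of 1.92. ATF4 itself (GRCh38 chr22:39519695-39522685, plus strand) was at 268, 266 and 268 scaled TPM in the 48 h libraries and 792, 688 and 712 in the 5 d libraries (1.45, SE 0.05, adjusted p = 1.48e-08) and had stood at 303, 272 and 302 in undifferentiated cells. Its 48 h libraries lay close together, just below the undifferentiated ones, and its 5 d libraries far above both. CHAC1, which degrades glutathione, was at 3.76, 3.70 and 4.02 scaled TPM in the 48 h libraries and 160.0, 125 and 112 in the 5 d libraries (4.77, SE 0.11, adjusted p = 2.58e-09). TRIB3, a pseudokinase that feeds back on ATF4, was at 1.59, 2.01 and 1.96 scaled TPM in the 48 h libraries and 72.5, 77.7 and 57.3 in the 5 d libraries (4.61, SE 0.11, adjusted p = 2.79e-09). All 5 d libraries of both genes stood more than a factor of 10 above all 48 h libraries. The secreted stress cytokine GDF15 went from 18.6 ± 0.708 to 420.5 ± 44.7 (4.42) and DDIT4, an inhibitor of mTORC1, from 59.3 ± 1.01 to 909 ± 98.8 (3.91). The promoter of CHAC1 and that of ASNS, asparagine synthetase (57.8 ± 1.62 to 461 ± 36.98; 2.97), are shown since both held the letters TGATGNAA of the amino acid response element on 1 strand within 250 bases of the start. These letters occurred in 3 of the 29 risen members with a RefSeq promoter (10.3%) and in 3.19% of all 27305 promoters. Printed 5′ to 3′ with the match in capitals are CHAC1 (chr15:40953232-40953299, plus strand; its match is on the other strand) and ASNS (chr7:97872439-97872506, minus strand).
CHAC1: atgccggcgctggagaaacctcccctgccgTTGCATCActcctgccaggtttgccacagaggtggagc
ASNS: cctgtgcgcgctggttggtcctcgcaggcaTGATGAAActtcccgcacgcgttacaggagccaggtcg
TRIB3, DDIT4, SESN2 and GDF15 had a promoter entry without these letters, which says only that they are not in that window.

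By role, the amino acid transporters that rose included the cystine importer SLC7A11 from 0.997 ± 0.162 to 27.5 ± 1.78 (3.84), the leucine importer SLC7A5 from 59.5 ± 0.364 to 373 ± 25.6 (2.62), SLC6A9, which carries the glycine that heme synthesis uses, from 47.9 ± 1.92 to 442 ± 22.3 (3.18) and SLC1A5 from 207 ± 2.58 to 972 ± 42.1 (2.23). Of the serine pathway, PSAT1 (28.6 to 178; 2.60) and PHGDH (0.257 to 5.53; 2.37) rose and PSPH, which catalyses its last step, fell (18.8 to 6.98; -1.32). PHGDH was under 1 scaled TPM at 48 h and so entered the test only through its 5 d libraries. ALDH18A1, of proline synthesis, was the other member that fell (99.9 to 32.5; -1.59). The stress transcription factors ATF3 (1.58 to 33.1; 3.72) and DDIT3 (5.59 to 31.3; 2.29) rose too, with few scaled TPM at 48 h. Of 12 genes of the eIF2alpha kinases, phosphatase and exchange factor 3 rose, 8 fell and 1 was not called (median -0.54, or 3 higher, 9 lower and a median of -0.96 under equal sums). The heme-regulated kinase EIF2AK1 was at 178, 179.7 and 185 scaled TPM in the 48 h libraries and 464, 448 and 477 in the 5 d libraries (1.35, SE 0.03, adjusted p = 3.23e-09). Both regulatory subunits of the phosphatase rose, PPP1R15A (128 ± 3.16 to 486 ± 15.7; 1.92), itself an ATF4 target, and PPP1R15B (23.1 to 59.2; 1.32). The amino acid-sensing kinase EIF2AK4 fell (15.1 to 6.94; -1.02) and so did the exchange factor subunits EIF2B3 (-1.72), EIF2B2 (-0.99) and EIF2B1 (-0.96), while the ER stress kinase EIF2AK3 was not called (0.17). The exchange factor subunits serve general translation initiation.

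**Figure D4:**
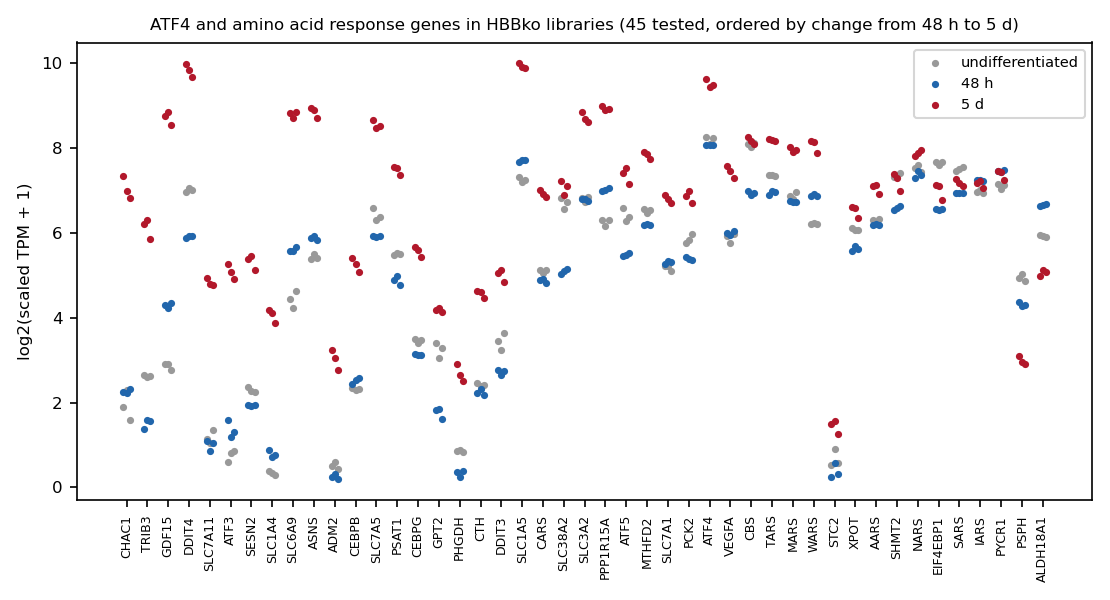
Log2(scaled TPM + 1) of the 45 tested ATF4 and amino acid response genes in HBBko libraries, ordered by their change from 48 h to 5 d, with undifferentiated libraries in grey, 48 h in blue and 5 d in red, 1 point per library. CHAC1 (4.77) is first, and PSPH (-1.32) and ALDH18A1 (-1.59) are last with their 5 d points below the 48 h points.

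Chaperones did not follow the ATF4 genes. Of 38 heat shock and cytosolic chaperone genes 27 fell, 9 rose and 2 were not called (median -0.64, or 4 higher, 30 lower and a median of -1.09 under equal sums). The mitochondrial chaperonin pair HSPE1 (274 ± 2.13 to 58.3 ± 4.54; -2.21) and HSPD1 (558 ± 12.4 to 198 ± 4.35; -1.49) fell, as did HSPA4L (-1.91), the cochaperone FKBP4 (-1.66) and the constitutive HSPA8 (1842 to 1241; -0.57). DNAJB4 (16.3 to 39.4; 1.22), the inducible HSPA1B (113 to 209; 0.87), DNAJB1 (0.81) and BAG3 (16.5 to 25.4; 0.59, but 0.16 and not called under equal sums) rose. ER chaperones and genes of the unfolded protein response had 11 of 29 tested higher, 15 lower and 3 not called, with a median of -0.19 that median-of-ratios scaling turned to 0.04 and quantile normalization to 0.0024; equal sums gave 6 higher, 20 lower and a median of -0.62. HERPUD1 (20.1 to 64.5; 1.63), DNAJB9 (5.39 to 17.03; 1.50), the transcription factor XBP1 (23.1 to 61.8; 1.38) and SEL1L (10.6 to 24.4; 1.13) rose. The disulfide enzymes PDIA4 (21.2 to 4.14, -2.11), PDIA6 (75.4 to 23.2, -1.66) and ERO1A (4.48 to 0.503, -1.87) fell. ERO1A averaged under 1 scaled TPM at 5 d and so passed the filter through its 48 h libraries, where it was higher. The main ER chaperone HSPA5 was not called (77.3 to 76.6, -0.02).

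Of 30 antioxidant genes tested 9 rose, 15 fell and 6 were not called (median -0.15; 0.06 with median-of-ratios scaling; 7 higher, 21 lower and a median of -0.56 under equal sums). Both subunits of the enzyme that limits glutathione synthesis rose, GCLC (59.1 ± 4.33 to 204 ± 30.4; 1.77) and GCLM (58.7 ± 1.10 to 128 ± 2.09; 1.11), together with SRXN1 (0.90), which repairs peroxiredoxins, and the abundant red cell peroxiredoxin PRDX2 (3392 to 6250.0; 0.88). Glutaredoxin GLRX fell from 96.1 ± 5.10 to 6.79 ± 0.452 (-3.64, SE 0.06, adjusted p = 8.23e-10), and PGD, of the pentose phosphate pathway, from 274 to 82.5 (-1.72). SELENOW (-1.50) and malic enzyme ME1 (-1.54) also fell. Heme oxygenase 1 (HMOX1), which breaks down heme, was at 15.6, 14.6 and 13.3 scaled TPM in the 48 h libraries and 13.7, 15.2 and 10.4 in the 5 d libraries and was not called (-0.15, SE 0.12, adjusted p = 0.276), except under equal sums (-0.57). Of the proteasome genes 11 of 42 tested rose, 23 fell and 8 were not called, with a median of -0.15 (22 higher, 15 lower and a median of 0.09 with median-of-ratios scaling; 1 higher, 39 lower and a median of -0.60 under equal sums). The activator subunits PSME1 (0.59) and PSME4 (0.54; not called under equal sums, at 0.10) rose, and their fellow activator PSME3 (101 to 38.9; -1.36), the immunoproteasome subunit PSMB10 (44.1 to 17.2; -1.31) and the assembly factor PSMG1 (-1.11) fell.

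Genes of the mitochondria fell in both genomes. All 13 mitochondrially encoded genes tested (of 15 listed) fell, with a median of -1.20 and a range of -1.38 to -0.66. MT-CO2, a subunit of cytochrome oxidase, was at 9010.3, 8743 and 8802 scaled TPM in the 48 h libraries and 2898, 3349 and 4083 in the 5 d libraries (-1.38, SE 0.10, adjusted p = 2.23e-06). As a share of all scaled TPM these genes made up 7.79, 7.55 and 7.18% of the 48 h libraries and 2.29, 2.61 and 2.97% of the 5 d libraries. The share also falls when globins grow: with globins left out of the total, the mean fell by 4.31 percentage points, in place of 4.88 points. Of 57 nuclear genes of the respiratory chain 55 fell, 1 rose and 1 was not called (median -0.69, or 0 higher, 56 lower and a median of -1.14 under equal sums). The ATP synthase subunits ATP5MC1 (324 ± 0.631 to 77.2 ± 1.56; -2.06), ATP5MC3 (369 to 129; -1.51) and ATP5F1C (-1.32) and the oxidase subunit COX5A (285 to 109.6; -1.37) had the largest falls. NDUFA6 was the 1 called higher (0.56), although its libraries overlapped between the stages at 4.09, 6.21 and 4.42 scaled TPM in the 48 h libraries and 6.62, 6.14 and 10.8 in the 5 d libraries; the call was lost without replicate 1 or 3 of 48 h or replicate 3 of 5 d (0.34 to 0.51) and under equal sums (0.17). In mitochondrial biogenesis and import 24 of 33 tested fell, 6 rose and 3 were not called (median -0.92). The ribosomal protein MRPL12 (144 to 25.6; -2.44), prohibitin PHB (203 to 36.8; -2.43) and the mitochondrial helicase TWNK (54.6 to 12.3; -2.06) fell, and the transcription factor NRF1 (0.74) and the fusion protein MFN2 (0.61) rose.

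In glycolysis and the hypoxia response 19 of 30 tested genes fell, 6 rose and 5 were not called (median -1.16). After GPI, the falls were led by lactate dehydrogenase A (LDHA), at 132, 129 and 132 scaled TPM in the 48 h libraries and 23.1, 21.4 and 23.5 in the 5 d libraries (-2.48, SE 0.04, adjusted p = 9.12e-10), enolase ENO1 (277 ± 5.86 to 66.7 ± 10.7; -2.05) and the lactate exporter SLC16A3 (14.6 to 2.82; -2.04). LDHA had stood at 625, 619.9 and 574 in undifferentiated cells, above all libraries of both later stages. Besides SLC2A1 and BPGM, hexokinase HK1 (417 to 643; 0.62) and VEGFA (63.2 to 173; 1.43) rose. Cholesterol genes split evenly, 11 higher, 12 lower and 5 of 28 not called, and their median was at 0.00 with a sign that follows the scaling (5 higher, 19 lower and a median of -0.45 under equal sums; 15 higher, 6 lower and a median of 0.24 with median-of-ratios scaling). The synthesis enzyme MSMO1 (22.04 to 45.6; 1.01), INSIG1 (64.3 to 113; 0.80), the carrier STARD4 (0.72) and SREBF2 (0.68) rose. The kinase PMVK, of the mevalonate pathway, fell from 24.1 to 5.03 (-2.06).

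The machinery that builds ribosomes had the lowest median of the 30 lists, -1.56: all 45 genes of ribosome biogenesis and RNA polymerase I fell, from -0.11 to -2.78. RRP9, of the small nucleolar particle that processes ribosomal RNA, was at 40.4, 38.7 and 40.1 scaled TPM in the 48 h libraries and 4.79, 5.34 and 4.64 in the 5 d libraries (-2.78, SE 0.06, adjusted p = 1.71e-09). LYAR (50.04 to 7.60; -2.57), NOP16 (70.8 to 11.8; -2.50) and WDR12 (116 to 20.6; -2.44) followed, and the abundant nucleolar genes NPM1 (1817 to 469.6; -1.95), nucleolin NCL (777 to 209.9; -1.88) and fibrillarin FBL (676 to 234; -1.53) fell as well. The smallest fall was that of UBTF, a factor of RNA polymerase I (-0.11), which median-of-ratios scaling called higher. Of the ribosomal protein genes 56 of 80 fell, 4 rose and 20 were not called, with a median of -0.20 against -0.22 for all genes (32 higher, 24 lower and a median of 0.04 with median-of-ratios scaling; 0 higher, 79 lower and a median of -0.65 under equal sums). As a share of all scaled TPM they made up 19.7, 19.8 and 19.8% at 48 h and 12.96, 12.8 and 12.03% at 5 d, and without globins in the total the mean fell by 2.01 percentage points in place of a difference of -7.18. RPL23 (1423 to 488; -1.54) and RPS26 (384 to 163; -1.23) had the largest falls and RPS27 rose (0.53; equal sums ended the call, at 0.10). Many of these genes have near-identical pseudogenes, so their values are uncertain. Of 43 translation factors 27 fell, 10 rose and 6 were not called (median -0.30, or 18 higher, 21 lower and a median of -0.06 with median-of-ratios scaling; 3 higher, 37 lower and a median of -0.75 under equal sums). EIF1, which keeps the start site choice strict, rose (494 ± 9.30 to 1432 ± 81.2; 1.53), as did EIF2S2 (0.97), while the helicase EIF4A1 (849.7 to 373; -1.19), EIF3A (-1.11), EIF3I (-1.13) and the EIF4A inhibitor PDCD4 (301 to 124; -1.27) fell.

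To ask which of these changes differed from those of WT cells over the same interval, the HBBko change minus the WT change was fitted over 12 libraries. Of 11407 genes tested 36.0% were called, 2008 with a higher change in HBBko (17.6%) and 2098 with a lower one (18.4%); 96 (0.842%) and 141 (1.24%) of them reached 1 in size. Equal sums moved the counts to 4027 and 996. The fetal and embryonic globins were among the largest differences. Of the 12 genes of the globin list 8 had a higher change in HBBko and 1 a lower one (10 and 0 under equal sums). HBG2 went from 1764, 1994 and 2763 to 4103, 3319.6 and 5582 in WT, and its difference was 1.91 (SE 0.25, adjusted p = 1.49e-04); that of HBG1 was 1.70 (SE 0.21, adjusted p = 7.89e-05), of HBE1 1.29 (SE 0.16, adjusted p = 8.37e-05) and of HBD 1.17 (SE 0.17, adjusted p = 2.80e-04). HBZ, not called in HBBko, went from 72.9, 66.6 and 73.9 to 15.95, 19.2 and 18.2 in WT (1.76, SE 0.17, adjusted p = 1.81e-05). HBA1 (0.21, SE 0.13, adjusted p = 0.224), HBA2 (0.26, SE 0.14, adjusted p = 0.158) and HBB (-0.37, SE 0.14, adjusted p = 0.0618) were not called, although equal sums called HBA1 (0.41) and HBA2 (0.46) higher; HBB was called lower without replicate 3 of WT at 48 h (-0.50), with a pseudocount of 5 and with a replicate block.

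HMOX1 had the largest difference of all named genes. In WT it was at 6.11, 5.59 and 5.22 at 48 h and 78.4, 106 and 110.1 at 5 d, while the HBBko libraries of the stages overlapped, a difference of -4.03 (SE 0.19, adjusted p = 2.16e-07). CDKN1A was at 1.04, 0.589 and 1.32 and 15.5, 14.4 and 17.5 in WT (-2.74, SE 0.23, adjusted p = 7.90e-06), and RHOC, a small GTPase, at 4.31, 4.26 and 4.06 and 18.5, 16.3 and 23.6 (-1.93, SE 0.14, adjusted p = 4.05e-06), whereas neither gene was called in the HBBko fit (RHOC, 0.03, turned to -0.33 under equal sums and was called higher with median-of-ratios scaling, at 0.22, and quantile normalization, at 0.41). IFI30, a lysosomal thiol reductase, fell in HBBko (21.5 to 12.4; -0.75) and went from 23.3, 24.2 and 26.7 to 58.6, 54.9 and 61.1 in WT (-1.95, SE 0.09, adjusted p = 1.74e-07). MT2A (-2.27, SE 0.21, adjusted p = 1.44e-05) and MT1G (-2.27, SE 0.28, adjusted p = 9.69e-05) fell further in HBBko. In the other direction HIST1H1C (2.56, SE 0.21, adjusted p = 7.55e-06), FTCD, an enzyme of histidine breakdown (2.88 ± 0.290 to 32.7 ± 2.28 in HBBko; 1.93, SE 0.24, adjusted p = 9.68e-05), and TSPAN32 (57.97 ± 5.50 to 97.8 ± 9.64 in HBBko; 1.75, SE 0.16, adjusted p = 1.26e-05) led. TSPAN32 rose in HBBko and went from 53.9, 52.4 and 52.9 to 23.4, 32.3 and 22.99 in WT.

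**Figure D5:**
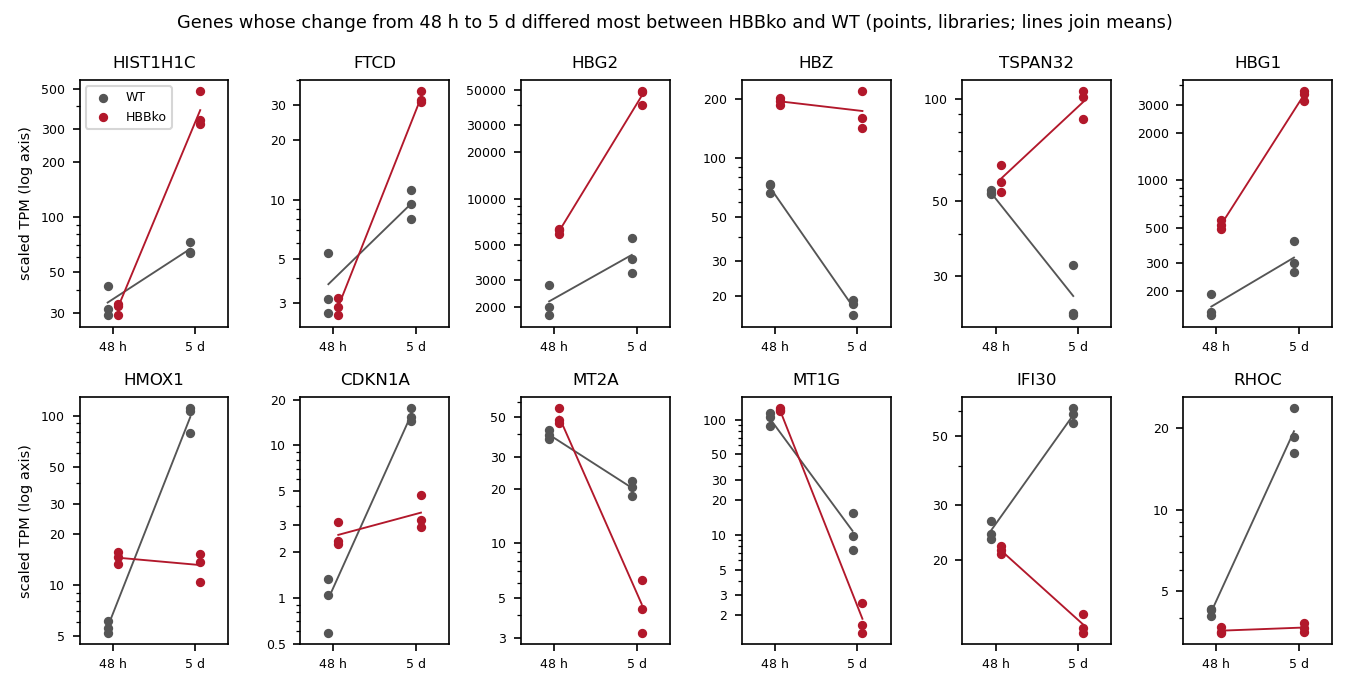
Scaled TPM (log axes) at 48 h and 5 d of the 12 genes with the largest difference between the HBBko change (red) and the WT change (grey); points are libraries and lines join the means of 3. HMOX1, CDKN1A and RHOC climb in WT and were not called in the HBBko fit, and HBG1 and HBG2 climb more steeply in HBBko.

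Counts by list are to be read against all 11407 genes, of which 17.6% had a higher change in HBBko and 18.4% a lower one. Under equal sums 4027 of all genes were higher and 996 lower. The median difference of all genes then moved from 0.0061 to 0.16. By list, the ATF4 genes had 16 of 47 with a higher change in HBBko and 11 with a lower one (23 and 5 under equal sums). ATF4 went from 377, 383 and 422 to 742, 701 and 753 in WT, and its difference was 0.55 (SE 0.08, adjusted p = 1.98e-04); the 5 d levels of both lines overlapped and the 48 h levels did not. CHAC1 (1.08, SE 0.19, adjusted p = 0.00109) and DDIT4 (1.00, SE 0.16, adjusted p = 5.37e-04) had higher changes in HBBko and TRIB3 a lower one (-0.83, SE 0.26, adjusted p = 0.0262). G2 and mitosis had 38 of 52 higher and 1 lower (47 and 0 under equal sums, 40 and 1 without globins), CDC25C among them (0.71, SE 0.07, adjusted p = 1.72e-05). S phase went from 3 higher and 17 lower of 47 to 13 and 2 under equal sums, so the direction of its counts follows the scaling. Its median lay below that of all genes in the main fit (-0.11 against 0.0061) and under equal sums (0.085 against 0.16). The same held without globins (-0.081 against 0.031) and with median-of-ratios scaling (-0.12 against -0.0038). The ER list had 2 of 29 higher and 14 lower (7 and 10 under equal sums), with SEL1L at -1.39 (SE 0.14, adjusted p = 2.13e-05). Further lists were uneven, and not all of them are given here. Ribosomal proteins had 43 of 80 higher and 2 lower (73 and 1 under equal sums). The nuclear respiratory chain had 19 and 1 of 57 (44 and 0) and cholesterol genes 14 and 1 of 28 (17 and 0). Histones had 12 and 2 of 23 (14 and 0) and the proteasome 17 and 5 of 42 (31 and 1). More were lower among antioxidant genes, with 4 higher and 16 lower of 30 (5 and 13), and in glycolysis, with 2 and 12 of 30 (6 and 9). Ubiquitin genes had 4 and 12 of 34 (11 and 6) and erythropoietin receptor signalling 2 and 8 of 23 (8 and 6). Arrestin domain genes and FOXO targets had 2 and 8 of 18 (5 and 5) and iron genes 5 and 9 of 21 (6 and 4). Late maturation had 7 higher and 11 lower of 34 (15 and 8 under equal sums), and MYB (-0.12, SE 0.09, adjusted p = 0.294) and SLC4A1 (0.37, SE 0.16, adjusted p = 0.0829) were not called.

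Most markers of other cell types did not pass the filter. Of 14 myeloid markers only FCGR1A passed the filter, at 60.6 ± 2.14 to 157 ± 8.96 (1.36, SE 0.05, adjusted p = 1.70e-08); the sum over the list was 59.5 to 63.6 at 48 h and 148 to 165 at 5 d, nearly all of it this gene, and 4 markers were at 0 in all 6 libraries. Of 13 megakaryocyte markers TUBB1 rose (4.13 ± 0.283 to 33.1 ± 3.65; 2.73) and 1 was not called; the sum was 7.20 to 8.74 at 48 h and 32.4 to 40.8 at 5 d, with 3 markers at 0. Of 12 markers of mast cells, basophils and eosinophils 4 were tested: the tryptases TPSAB1 (6.28 ± 0.737 to 1.68 ± 0.0915; -1.44) and TPSB2 (4.80 to 1.26; -1.36) fell, PRG2 rose (10.3 ± 1.28 to 31.5 ± 5.94; 1.51) and GATA2 was not called. Their sum was 46.3 to 51.8 at 48 h and 53.2 to 74.8 at 5 d, with 2 at 0. No lymphoid marker of 11 and no stromal or endothelial marker of 10 was tested, and their sums stayed at or under 1.04 scaled TPM in every library. The part of these cells, and of the shares of mitochondrial and globin RNA, in the results above was not tested.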

How the data were processed

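The RNA was measured by RNA-seq of TruSeq RNA libraries, per the labels' protocols. For the quantification, kallisto, sleuth and hg38 are listed without versions in the submitters' processing notes; annotation and the step that scaled the libraries are not given in the sources used here. The deposited signal per gene symbol is TPM that the authors scaled again between libraries. TPM keeps no depth, so the reads behind a value are unknown and its counting error cannot be stated.

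Groups follow the labels, and columns were matched to them by name. Genes with at least 1 scaled TPM in 3 of the 6 libraries were fitted with limma 3.58.1 (R 4.3.3, intensity trend, 4 residual degrees of freedom) on log2(value + 1), with Benjamini-Hochberg adjustment over all genes tested and a threshold of 0.05. The difference from WT was fitted over 12 libraries in the same way. The scripts were tested on simulated data. The genes and 35 lists (1075 of 1080 symbols found) were chosen with earlier results of these data known: fixed globin and regulator genes, the 12 largest rises and falls with at least 10 scaled TPM and no overlap, up to 4 called members a list in each direction, and the 6 largest differences from WT in each direction. Differences from WT were ranked only among called genes with at least 10 scaled TPM in 1 group mean. Other genes of the lists are given as examples by their known role, chosen after their values were seen. Scalings, pseudocounts, filters, weights, a replicate block and single libraries left out were tried. The authors' tables of HBBko against WT at 1 stage were not used here. Some genes that the rule picks are not reported here; they stay in the fits and counts.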

Additional observations from a re-analysis of the deposited data

Results flagged for a closer look

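The change from 48 h to 5 d differed between HBBko and WT, by the test of the difference in limma over 12 libraries, for 14 genes listed here: the fixed globins and regulators with a called difference of at least 1 in size on the log2 scale, and the 6 largest differences in each direction. The latter were ranked among called genes with at least 10 scaled TPM in 1 group mean. It was higher in HBBko for the globins HBD (1.17 on the log2 scale), HBG1 (1.70), HBG2 (1.91), HBE1 (1.29) and HBZ (1.76), the linker histone gene HIST1H1C (2.56), FTCD (1.93) and TSPAN32 (1.75). It was lower in HBBko for HMOX1 (-4.03), CDKN1A (-2.74), the metallothioneins MT2A (-2.27) and MT1G (-2.27), IFI30 (-1.95) and RHOC (-1.93). In HMOX1, CDKN1A, RHOC and IFI30 the 5 d libraries of WT were above its 48 h libraries, while no HBBko library reached the 5 d range of WT. MT2A and MT1G were lower at 5 d in both lines, with every HBBko library below every WT library at that stage.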

How the results depend on the processing

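Between-library scaling is the main limit, since no spike-in or read count fixes it. With equal sums the rises went to 2091, those of size 1 or more to 584 and such falls to 3600; the difference from WT went to 4027 higher (148 of size 1) and 996 lower (80). A pseudocount of 5 left 663 rises and 1099 falls of size 1, and 28 and 43 such differences from WT. Among the genes named by the rule, equal sums turned GATA1 (-0.0918), ID2 (-0.0792), PSMD2 (-0.0403), PSMB4 (-0.15), RPL36A (-0.19), RPS12 (-0.32) and RHOC (-0.33). Median-of-ratios scaling turned STEAP3 (0.0832), ARMC8 (0.0387) and DDB1 (0.12) among them. The share of mitochondrially encoded RNA changed by -4.31 percentage points with globins out of the total, that of ribosomal proteins by -2.01, and by -8.45 with mitochondrial genes out. All these were obtained with changed sums, scaling factors or pseudocount, and what moved each call was not tested. Leaving out each library in turn gave 3473 to 3616 rises and 5598 to 5790 falls, and 1629 to 2095 higher and 1773 to 2083 lower differences from WT. All 18 libraries in 1 fit gave 1375 and 1562 such differences, for which the cause was not tested.

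Same-numbered libraries of both stages had correlated deviations of 0.043, 0.107 and 0.064, so not every pair passed 0.1 and the numbers were not taken as pairs; each library did correlate best with its own number. With a replicate block 3635 genes rose and 5816 fell, and 1867 and 1959 differed from WT; among named genes the block changed the call of CDKN1A, and of HBB against WT (adjusted p = 0.039).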
